A study of Mus musculus with 5 samples.

Results

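The 4 genes Zic1, Zic4, Zic2 and Zic5 lie as neighbouring pairs at 2 places in the mouse genome, and the histone marks over both places were read from peak lists of mouse epiblast stem cells. Members were all peaks of 4 lists that touched either of 2 windows on the mm9 build, chr9:91220000-91340000 for Zic1 and Zic4 (120 kb) and chr14:122820000-122930000 for Zic2 and Zic5 (110 kb). They numbered 94 of 156288 peaks, with 51 in the Zic1-Zic4 window and 43 in the Zic2-Zic5 window. The cells were EpiSC9, a line of epiblast stem cells kept on a feeder layer of irradiated embryonic fibroblasts in medium with 10 ng/ml FGF2. Chromatin immunoprecipitation followed by sequencing took 5000000 crosslinked cells per antibody and addressed 4 modifications of histone H3, namely H3K27ac, H3K27me3, H3K4me1 and H3K4me3. Each mark had 1 library from this 1 line and no replicate, with no treatment or other genotype, and an input library was not used here. The depth of the libraries is unknown, because the lists give intervals and a score per peak but no reads.

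The windows were chosen by their H3K27ac and H3K27me3 peaks in these same lists, so all values on them are a description and carry no test. The working contrast was an active against a silenced pair. For Zic1 and Zic4 the silenced label rests on these same peaks, H3K27me3 over 62.7 kb and 0 H3K27ac peaks. They are therefore no separate support for it. The same window also held 15 H3K4me3 peaks, all of which overlapped H3K27me3. For Zic2 and Zic5 the peaks went partly against the contrast. That window held 8 H3K27ac peaks over 8.55 kb and also 7 H3K27me3 peaks over 13.9 kb, so it is called acetylated and Polycomb-marked here, not active. RNA was not analysed here, and the marks do not measure expression. The labelled cell type was not checked against marker genes, since gene positions on mm9 were not used here.

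Zic genes encode zinc finger transcription factors related to the Gli factors of Hedgehog signalling. They act in the neural plate, neural crest, somites and cerebellum. Zic2 is a gene of holoprosencephaly and is expressed in the epiblast and in primed pluripotent cells, Zic5 takes part in neural crest formation, and Zic1 and Zic4 are known for their joint part in growth of the cerebellum. Among the marks, H3K4me3 marks promoters, mostly those rich in CpG, and H3K4me1 is typical of enhancers and promoter flanks. H3K27ac marks active promoters and enhancers. H3K27me3 is placed by Polycomb repressive complex 2 at silent genes, and its presence together with H3K4me3 is called bivalent.

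In the RefSeq gene order of GRCm38.p6, Zic1 and Zic4 are adjacent with no gene between them, and their next protein-coding neighbours are Tbc1d2b and Plscr5. Between Zic5 and Zic2 stands the noncoding gene 2610035F20Rik, and the next protein-coding genes are Clybl before Zic5 and Pcca after Zic2. These positions belong to another build than the peaks, so only the order is used and no peak is assigned to a start site. Peaks over a gene pair are therefore peaks anywhere in its window. The 250 bases before the start of 3 members are shown because CpG content bears on where H3K4me3 and H3K27me3 are found. They are RefSeq sequences on GRCm38.p6, whose coordinates do not match those of mm9, read 5′ to 3′ on the gene's strand, with each CpG in capitals.
Zic1, chr9:91365769-91366018, minus strand: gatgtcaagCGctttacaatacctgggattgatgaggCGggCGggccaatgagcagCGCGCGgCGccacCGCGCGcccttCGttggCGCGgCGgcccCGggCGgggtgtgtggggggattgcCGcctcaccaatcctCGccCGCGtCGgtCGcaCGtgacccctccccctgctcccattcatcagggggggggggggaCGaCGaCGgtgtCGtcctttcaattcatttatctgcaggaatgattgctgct
Zic4, chr9:91368722-91368971, plus strand: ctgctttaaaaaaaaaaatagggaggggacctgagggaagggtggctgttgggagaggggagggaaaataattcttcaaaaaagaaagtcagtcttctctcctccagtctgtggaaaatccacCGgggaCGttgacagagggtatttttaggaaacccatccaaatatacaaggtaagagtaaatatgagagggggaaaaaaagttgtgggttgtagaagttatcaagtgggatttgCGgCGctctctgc
Zic5, chr14:122465659-122465908, minus strand: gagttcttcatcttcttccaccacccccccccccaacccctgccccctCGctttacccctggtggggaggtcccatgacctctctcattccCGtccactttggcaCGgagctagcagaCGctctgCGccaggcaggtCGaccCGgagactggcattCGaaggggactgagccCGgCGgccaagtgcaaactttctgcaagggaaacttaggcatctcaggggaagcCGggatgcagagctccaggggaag
The CpG count was 27 for Zic1, 11 for Zic5 and 4 for Zic4, against a median of 6 over 32841 promoter windows of this length. At least 27 CpG were found in 8.57% of those windows, at least 11 in 35.6% and at least 4 in 62.2%, and the CG letters read the same on both strands. The CpG count relative to that expected from base content was 0.995 for Zic1, 0.458 for Zic5 and 0.376 for Zic4. Zic1 and Zic4, whose window held 1 H3K27me3 domain, thus stood furthest apart of these sequences.

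The Zic1-Zic4 window was a single block of H3K27me3 with H3K4me3 inside it. H3K27me3 covered 52.3% of the window in 24 peaks, H3K4me1 14.3% in 12 peaks, H3K4me3 9.4% in 15 peaks and H3K27ac 0%. In the Zic2-Zic5 window the order was different: H3K4me1 covered 33.2% in 15 peaks, H3K4me3 17.5% in 13 peaks, H3K27me3 12.7% in 7 peaks and H3K27ac 7.78% in 8 peaks. Both H3K4 marks therefore covered more of the Zic2-Zic5 window, and H3K27me3 covered more of the Zic1-Zic4 window. The lists differ in length and threshold, so shares are set side by side between windows for 1 mark, and a list with 0 peaks shows only that no region passed the authors' calling there.

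**Figure D1:**
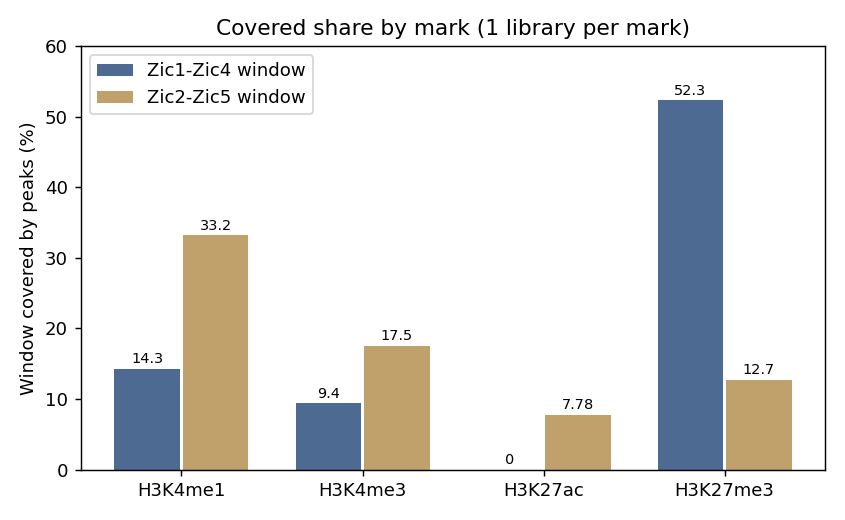
Bars give the percentage of each window covered by peaks of each mark, from 1 library per mark and therefore without error bars, with the Zic1-Zic4 window in blue and the Zic2-Zic5 window in tan. H3K27me3 covers 52.3% and 12.7%, and H3K27ac 0% and 7.78%.

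Against tiles of the same length laid over all chromosomes, both windows held rare amounts of H3K27me3, which the choice of windows by these peaks fixes in large part. H3K27me3 without H3K27ac was present in 8.3% of 21999 tiles of 120 kb. It covered 62.7 kb or more in 5 tiles, among them the tile that holds the Zic1-Zic4 peaks themselves. Both H3K27 marks were present in 10.6% of 23999 tiles of 110 kb. As much H3K27me3 as in the Zic2-Zic5 window was found in 154 of these tiles, as much H3K27ac in 1002, and as much of both in 5. A tile edge can divide a domain, and with tiles shifted by 50% the last count was 7, which includes the tile over the Zic2-Zic5 peaks themselves.

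**Figure D2:**
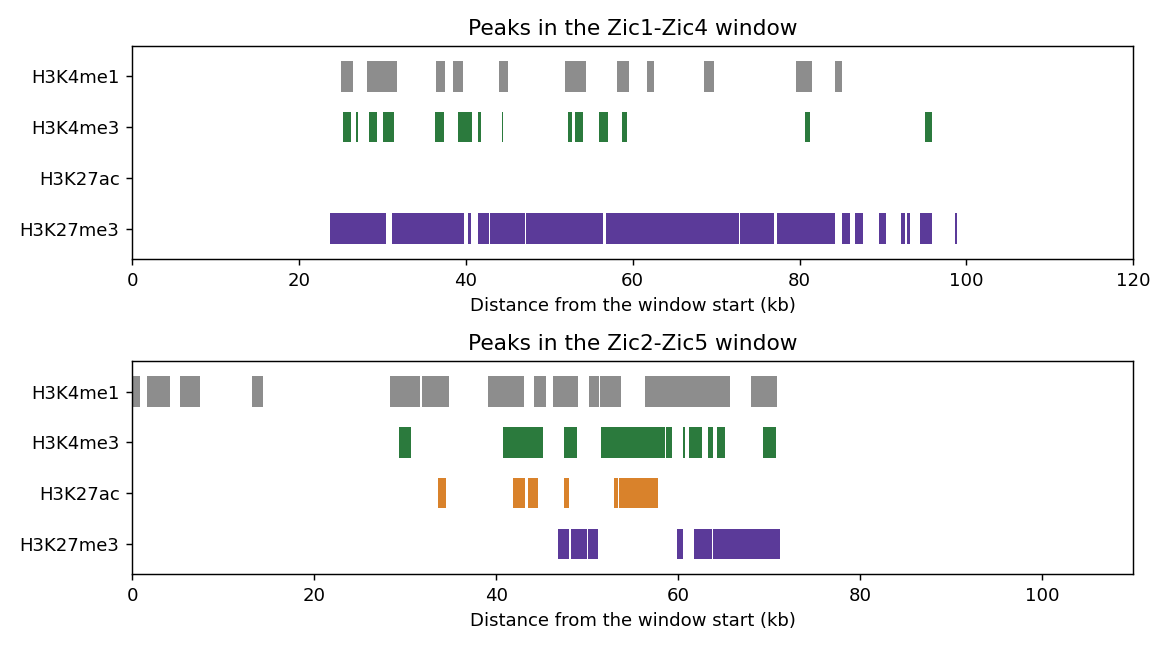
Peaks of the 4 marks are drawn as bars to scale along each window, with distance from the window start in kb on the horizontal axis. The upper panel shows 1 run of H3K27me3 with no H3K27ac, and the lower panel shows H3K27ac and H3K27me3 taking turns between 33.6 and 71.2 kb.

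The H3K27me3 run over Zic1 and Zic4 was among the longest in these cells. Joined within 5 kb, the 24 peaks formed the domain chr9:91243710-91318923, which spanned 75.2 kb and ranked 5 of 7561 by covered length. The 5 longest peaks were 8481, 7764, 5506, 4627 and 4375 bp wide, against a median of 405 bp over the list. Their scores were 1446.42, 3100, 2332.84, 1795.42 and 1724.67, all above the list's median of 69.08. The score is the authors' and ranks peaks within a list only. Of the 24 peaks, 20 scored at or above the list's median. The 4 that did not were chr9:91260210-91260606, which lay inside the strong part of the domain, and 3 narrow peaks in its thin far end.

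H3K27me3 thinned out toward the higher coordinates. From 23.7 to 84.3 kb into the window the peaks followed each other with breaks of at most 796 bp. Beyond that the remaining peaks were 350 to 1365 bp wide, and the breaks between them reached 2664 bp. H3K27me3 thus began at 23.7 kb with a peak of 2028 bp and a score of 619.25 and ended at 98.9 kb with a peak of 350 bp and a score of 51.95.

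**Figure D3:**
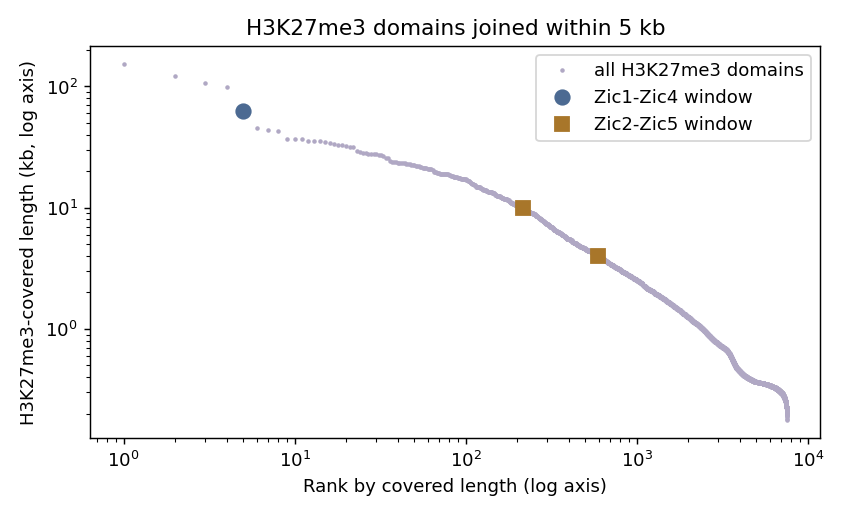
Each point is an H3K27me3 domain, plotted by its rank (log axis) and its covered length in kb (log axis), with domains of the Zic1-Zic4 window as a blue circle and of the Zic2-Zic5 window as brown squares. The Zic1-Zic4 domain stands at rank 5 with 62.7 kb, and the Zic2-Zic5 domains at ranks 217 and 597.

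H3K4me3 in the Zic1-Zic4 window lay wholly within the H3K27me3 run. All 15 H3K4me3 peaks overlapped H3K27me3 and none overlapped H3K27ac, a class that held 15.6% of all H3K4me3 peaks, and the choice of window fixes this count in large part. Of the bases under H3K4me3, 84.7% were also under H3K27me3. The H3K4me3 peaks were weak for their list. Scores ran from 50.01 through a median of 238.6 to 956.02, and 2 of 15 were at or above the list's median of 888.39. None scored 3100 or more, a level reached by 25.4% of all H3K4me3 peaks.

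The 3 H3K4me3 peaks with the highest scores over Zic1 and Zic4 each lay over an interruption of H3K27me3. The peak chr9:91275857-91277008 scored 956.02 and spanned a break of 385 bp in H3K27me3. The peak chr9:91259030-91260733, with a score of 947.59, covered a break of 391 bp and reached into another of 786 bp. A peak at chr9:91250147-91251162 had a score of 537.86, and H3K27me3 covered 22.1% of it, the lowest share among the 15. It filled 99.4% of a break of 796 bp. The next in score, 441.45 at chr9:91256307-91257372, was covered by H3K27me3 over 100% of its length, so not every strong peak lay at a break. Of 23 breaks, 7 held H3K4me3, and among the 11 breaks of 300 bp or more 5 did, of which the widest, 2664 bp, held only 7 bp of it. Over breaks of this size in all H3K27me3 domains the share with H3K4me3 was 35.2%, and 40.8% in domains that covered 3 kb or more, so the count was near the background. No break held H3K27ac. The 300 bp limit was chosen after the values were seen.

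The remaining 11 H3K4me3 peaks of this window scored between 50.01 and 427.53. They included chr9:91300742-91301321 (score 238.55) and chr9:91314989-91315916 (402.51), which stood 21.4 and 35.6 kb beyond the end of the other peaks. Both were at least 99.2% covered by H3K27me3.

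H3K4me1 over Zic1 and Zic4 scored low for its list and followed the same domain. It covered 17.2 kb, less of the window than over Zic2 and Zic5 but more than the median of 1.93 kb per tile of 120 kb, and 13% of tiles held as much. All 12 H3K4me1 peaks touched H3K27me3 and none touched H3K27ac, against 5.75% of all H3K4me1 peaks in that class. Here too the choice of window fixes the count in large part. Scores ran from 50.1 through a median of 86.4 to 336.21, and 2 of 12 reached the list's median of 128.18. The strongest, chr9:91248189-91251728 with a score of 336.21, surrounded the break filled by H3K4me3. H3K4me1 overlapped 11 of 15 H3K4me3 peaks, against 83.2% of all H3K4me3 peaks. The H3K4me3 peak with the highest score, 956.02, was among the 4 with 0% H3K4me1.

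Away from H3K4me3 the Zic1-Zic4 window held few elements. Only 3 H3K4me1 peaks had no H3K4me3 within 1 kb, and each overlapped H3K27me3, a class with 0.846% of all distal H3K4me1 peaks. This overlap is fixed in large part by the choice of window. The 3 peaks were chr9:91281704-91282645 with a score of 50.94, chr9:91288625-91289731 with 87.76 and chr9:91304245-91305135 with 68.64. The first 2 lay entirely under H3K27me3 and the last over 15.9% of its length.

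In the Zic2-Zic5 window H3K27ac and H3K27me3 alternated, in 6 blocks when every peak was counted and in 4 among peaks at or above their list's median score. From low to high coordinates these were H3K27ac (3 peaks, chr14:122853578-122864584), H3K27me3 (1 peak), H3K27ac (1 peak), H3K27me3 (2 peaks), H3K27ac (4 peaks, chr14:122872907-122877760) and H3K27me3 (4 peaks, chr14:122879919-122891213). Blocks were ordered by peak start. The single-peak blocks overlapped each other, with 95.8% of the single H3K27ac peak inside the H3K27me3 peak. That H3K27me3 peak and the next stood 227 bp apart and belonged to 1 domain, so H3K27ac did not separate them into 2 domains. The last acetylated peak ended 2.16 kb before the last H3K27me3 block began. Neither mark was found on 80.1% of the window's bases, H3K27me3 alone on 12.1%, H3K27ac alone on 7.26% and both on 0.52%.

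The place where both marks met was small. The H3K27ac peak chr14:122867399-122867995, with a score of 82.04, shared 572 bp with the H3K27me3 peak chr14:122866847-122867970, with a score of 146.76. That was 95.8% of the H3K27ac peak and 50.9% of the H3K27me3 peak. It was 1 of 8 H3K27ac peaks and 1 of 7 H3K27me3 peaks, while over all chromosomes 0.601% of H3K27ac and 1.27% of H3K27me3 peaks touched the other mark. These shares are not a like background, since the window was chosen by these marks and holds both close together. Only 13% of all H3K27me3 domains had H3K27ac within 5 kb. Whether both marks sat on the same chromosomes, on different alleles, in different cells or in part on feeder chromatin cannot be told apart from peak lists of a bulk culture.

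Acetylation over Zic2 and Zic5 was of middling strength for its list. In order along the chromosome the 8 H3K27ac peaks scored 102.85, 383.58, 172.11, 82.04, 71.04, 348.02, 91.38 and 498.04, and 4 were at or above the list's median of 163.155. The high ones were thus in both large acetylated blocks, and the widest was chr14:122875442-122877760 with 2319 bp and a score of 498.04. H3K4me3 overlapped 7 of the 8, against 42.1% of all H3K27ac peaks, and H3K4me1 overlapped 7, against 77.8%. The exception to H3K4me3 was the first, chr14:122853578-122854452, which lay on H3K4me1 alone. Joined into clusters, the 8 peaks spanned 24.2 kb and made a cluster that ranked 503 of 16953 by covered length. H3K27me3 lay within the span of that cluster, as it did in 1.59% of all clusters and in 9.94% of the 322 clusters with 8 or more peaks.

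H3K4me3 in the Zic2-Zic5 window was strongest where it carried H3K27ac alone. The 4 H3K4me3 peaks of Zic2 and Zic5 with H3K27ac alone scored 3201.78, 3143.65, 850.41 and 3100, and this class held 48.2% of all H3K4me3 peaks. Those with H3K27me3 alone numbered 5, with scores of 91.13, 671.02, 100.85, 249.01 and 819.7 along the chromosome, in a class with 15.6% of all peaks. The peak of 91.13 touched H3K27me3 over only 6 bp, or 1.66% of its length. With 50% of a peak required, the class again held 5, without that peak and with the peak of 712.05 that touched both marks. The score ranges with H3K27ac alone and with H3K27me3 alone did not overlap in the window, where 850.41 and 819.7 were the nearest values. Over all chromosomes these ranges overlapped almost wholly, from 50.01 to 3233.06 and from 50.01 to 3227.04. The median with H3K27ac alone was 2606.1 over all chromosomes and 3121.8 in the window. Many scores stop at about 3100, and 3 of the 4 peaks here and 6231 of 13937 over all chromosomes scored 3100 or more. Peaks with neither mark numbered 3, against a share of 35.2% of all H3K4me3 peaks, and scored 727.13, 690.48 and 173.43. The 1 peak with both, in a class of 1.03%, scored 712.05, against a median of 3100 for that class over all chromosomes. The class with H3K27me3 alone had a median score of 249 in the Zic2-Zic5 window and 238.6 in the Zic1-Zic4 window, against 909.1 over all chromosomes. The Zic2-Zic5 value rests on the peak of 91.13, and with at least 10% of a peak required to overlap, the median there was 460 over 4 peaks.

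**Figure D4:**
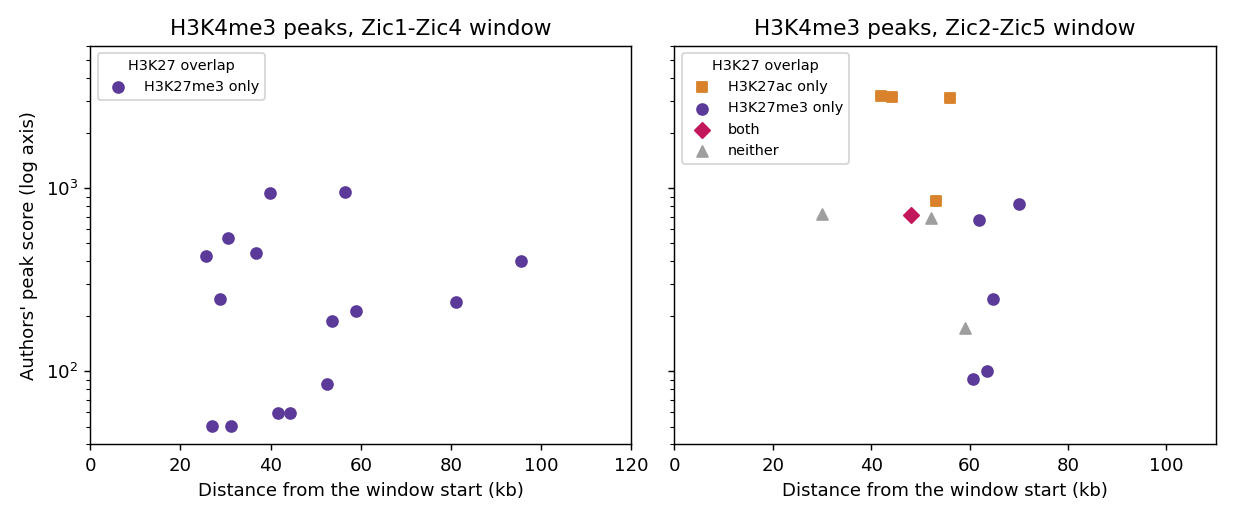
Each point is an H3K4me3 peak, placed by its distance from the window start in kb and by the authors' score (log axis), with colour and shape showing the H3K27 mark it overlaps. The Zic1-Zic4 peaks reach 956.02, and the 3 Zic2-Zic5 peaks at 3100 or more all carry H3K27ac alone.

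The 3 broadest H3K4me3 peaks of the Zic2-Zic5 window carried H3K27ac alone, while the remaining peak of that class was 626 bp wide and narrower than several peaks without H3K27ac. The widest was chr14:122873540-122878625, at 5086 bp wider than 99.8% of its list, of which H3K27ac covered 80.3% and H3K4me1 43.4%. The peaks chr14:122860736-122863283 and chr14:122863302-122865090 stood almost end to end and were 55.2% and 60.8% under H3K27ac. For comparison, the widest H3K4me3 peak of the Zic1-Zic4 window measured 1704 bp.

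H3K27me3 in the Zic2-Zic5 window also ranked high in its list, over a shorter length than at Zic1 and Zic4. All 7 peaks scored at or above the list's median of 69.08. In order they scored 146.76, 374.49, 243.44, 86.19, 683.59, 2013.92 and 841.87. The 5 longest were 4299, 3074, 2044, 1789 and 1124 bp wide. Joined within 5 kb they formed a domain of 11.3 kb at rank 217 of 7561 (9.96 kb covered) and another of 4.3 kb at rank 597 (3.98 kb covered). The break between these domains, 8767 bp wide, held 4 H3K27ac peaks and was 87.4% under H3K4me3. H3K4me3 overlapped 6 of the 7 H3K27me3 peaks here, 1 of them over only 6 bp, and 12 of 24 in the Zic1-Zic4 window, against 33.2% over all chromosomes. H3K4me1 overlapped 7 of 7 and 12 of 24, against 41.3%.

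H3K4me1 was wider and stronger over Zic2 and Zic5 and took in both kinds of block. The 15 peaks scored from 56.78 through a median of 267.4 to 885.79, and 10 reached the list's median. H3K27ac alone was on 5 of them (30.5% of all H3K4me1 peaks), H3K27me3 alone on 3 (5.75%), both on 1 (0.457%) and neither on 6 (63.3%). The strongest, chr14:122878632-122885702, spanned 7071 bp and was 63.9% under H3K27me3. H3K4me1 overlapped each of the 13 H3K4me3 peaks. Distal elements numbered 5, of which 1 carried H3K27ac alone (18.6% of all distal H3K4me1 peaks) and 4 neither mark (80.5%). The acetylated one was chr14:122851835-122854763, with a score of 331.69.

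The surroundings of the windows also differed. Within 100 kb on either side of the Zic1-Zic4 window the lists held 0 peaks of any mark. Before the Zic2-Zic5 window the same distance held 12 H3K4me1, 7 H3K27ac and 1 H3K4me3 peaks, and after it 2, 1 and 2, with 0 H3K27me3 peaks on either side. Both edges of this window fell near marked elements. A H3K4me1 peak at chr14:122819051-122820879 crossed the lower edge. The nearest H3K27ac peak before the window, chr14:122813819-122817228, lay 2.77 kb away with a score of 3100, above all 8 inside. That peak was 3410 bp wide, and no H3K4me3 peak lay within 5 kb of it. After the window the nearest H3K27ac peak, chr14:122932724-122933445, lay 2.72 kb away with a score of 249.05, and the nearest H3K4me3 peak 2.85 kb away. Which gene such an element serves was not tested.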

How the data were processed

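Chromatin immunoprecipitation libraries of EpiSC9 cells were grouped by the antibody in the labels, with 1 library per mark. The authors deposited 4 lists of peak intervals with a score per peak. Per the submitters' processing notes, the tools were Bowtie 0.12.9, MACS 1.4 and Cufflinks (no version) with build mm9, and their roles are not stated. Which control, threshold and score scale were used, and how duplicate reads were treated, is not given in the sources used here. The lowest score was 50, and many scores stop at about 3100, so scores only ranked peaks within a list. Covered shares grow with library depth, which is unknown.

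Peaks overlapped when they shared at least 1 bp. Distal H3K4me1 peaks had no H3K4me3 within 1 kb. H3K27me3 peaks were joined within 5 kb and H3K27ac peaks within 12.5 kb. Shares over all peaks or over tiles of the window's length, up to each chromosome's last peak, stand beside the counts as background. Coordinates of peaks are 1-based on mm9, and promoter sequences are from RefSeq on GRCm38.p6, where 3 of the 4 genes matched. The named items were the 4 genes, the H3K4me3 and H3K27ac peaks, the 5 longest H3K27me3 peaks per window, the domains and clusters and the nearest peaks outside. Distal elements and other single peaks were named after their values were seen. The windows, lists and rules were chosen with earlier results of these data known. No test was run, since each mark had 1 library. The Gli and Glis genes and markers of cell types were not analysed here, because they need gene positions on mm9. Interval functions were tested on simulated data. Computation used Python 3.11.15 with numpy 2.4.6, and plots were drawn with matplotlib 3.10.9.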

Additional observations from a re-analysis of the deposited data

How the results depend on the processing

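Of 52 values recomputed under other settings, 41 stayed within 1.5 times the reported value and 11 did not. Values exactly at that limit count among the 41. Merging within 1 kb took the 15 H3K4me3 peaks of Zic1 and Zic4 to 10. Wider windows took the 4 of Zic2 and Zic5 with H3K27ac alone to 6. The median score limit took the 3 distal H3K4me1 peaks of Zic1 and Zic4 to 2 and the 6 blocks to 4. The covered shares of H3K27me3 and H3K27ac stayed within 1.5 times in both windows under every score, list length and window setting tried. The Zic1-Zic4 window held 0% H3K27ac under each, but only the wider windows could have changed that value. The other settings can only take peaks away. Equal list length keeps the whole H3K27me3 list of 16975 peaks, so its shares could not change under that setting. The count of 15 H3K4me3 peaks with H3K27me3 alone over Zic1 and Zic4 fell to 2 among peaks at or above their list's median score and to 3 when every list was limited to its 16975 best-scoring peaks, since those settings drop weak H3K4me3 peaks. The 4 H3K4me3 peaks with H3K27ac alone over Zic2 and Zic5 became 2 when H3K4me3 peaks were merged within 1 kb. Distal H3K4me1 peaks with H3K27me3 alone over Zic1 and Zic4, 3 in number, became 0 under that limit and 1 with H3K4me3 excluded within 5 kb. The single distal element with H3K27ac alone over Zic2 and Zic5 became 0 at or above the median score, 0 with lists of equal length, 0 with exclusion within 5 kb, and 2 with windows widened by 20 kb at each end. The longest H3K27ac cluster, 8.55 kb, became 4.59 kb with joining within 1 kb and 0.875 kb without H3K27ac within 1 kb of H3K4me3. These changes follow from the peaks each setting leaves out, joins or, with wider windows, adds. Settings added after the data were examined were tiles shifted by 50% (8.42% and 10.7%), the block count without peaks below their list's median score (4) and an overlap of 10% or 50% for H3K4me3 with H3K27me3 alone over Zic2 and Zic5 (4 and 5 peaks). No paired analysis was possible because each mark has 1 library. The unknown depth limits what 0 peaks can show.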

Other observations

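The H3K27me3 domains of the gene pairs differed in how far they lay from acetylation. The Zic1-Zic4 domain was 708.7 kb from the nearest H3K27ac peak, on the side of higher coordinates, a distance reached by 208 of 7561 domains (2.75%) and by 8 of the 819 domains with at least 3 kb under H3K27me3. The median distance was 49.6 kb over all domains and 37.9 kb over those of 3 kb or more, a size chosen after the values were seen. The choice of the Zic1-Zic4 window by its H3K27 marks fixes part of its distance. Other marks were sparse around this window too. The nearest H3K4me1 peaks lay 420.9 kb before and 797.6 kb after it, and the nearest H3K4me3 peaks 1053.9 and 220.8 kb. Of the Zic2-Zic5 domains, 1 overlapped H3K27ac and the other lay 2.16 kb from it, and H3K27ac within 5 kb was found for 13% of all domains and 15% of those of 3 kb or more. The nearest H3K27me3 peaks outside the windows were 1412.5 kb before and 3029.4 kb after the Zic1-Zic4 window, and 623.4 kb before and 1660.7 kb after the Zic2-Zic5 window.

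The 4 domains longer than that of Zic1 and Zic4 can be set beside it by position. They lie at chr15:102732520-102901305, chr6:52099332-52228455, chr11:96111402-96236792 and chr2:74484673-74593091. H3K27me3 covered 85.9% to 93.8% of their spans and 83.4% of the Zic1-Zic4 domain. They held 1.84 to 3.5 H3K4me3 peaks per 10 kb, against 1.99 over Zic1 and Zic4. The highest H3K4me3 score in each was 1539.3, 3100, 2815.97 and 1001.93, against 956.02. The median H3K4me3 score went the other way, at 180.5, 197.3, 181.5 and 143.6, against 238.6 over Zic1 and Zic4. H3K27ac was present in the domains on chromosomes 6 and 11, as 8 and 10 peaks, and absent from the lists in the other 2 and over Zic1 and Zic4.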
